A study of Mus musculus with 12 samples.

Results

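The unfolded protein response and the chaperones of the endoplasmic reticulum (ER) were followed in RNA-seq of adipose stromal vascular cells from mice, the progenitor, vascular and immune cells of fat without the mature adipocytes. The set holds 32 genes chosen by symbol, and all 32 were found among the 24422 features of the deposited tables. All 32 also passed the filter on low counts, which kept 16713 genes. The libraries fell into 4 groups of 3. SD mCherry (replicates 1, 2 and 3) were p21+/mcherry mice on a standard diet, and HFD mCherry (replicates 15, 17 and 20) were p21+/mcherry mice given a high-fat diet. HFD Tert (replicates 25, 26 and 27) were p21+/mcherry-Tert mice and HFD TertCi (replicates 30, 31 and 33) were p21+/mcherry-TertCi mice, both on the high-fat diet. Tert is the protein subunit of telomerase, and TertCi its catalytically inactive form. In every group 1 allele of p21 (Cdkn1a) carried a cassette, so that Tert or TertCi was made under the p21 promoter, and the controls carried mCherry at the same place. The design text of the series writes the high-fat control as p21+/-, and the sample labels were followed here. The labels give neither age nor fat depot. They do not say whether each library came from a separate animal, so the p-values measure only the spread between these samples, which may be technical.

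Proteins that enter the secretory pathway fold in the ER with the help of chaperones, of lectins that bind their glycans and of enzymes that form disulfide bonds. When unfolded protein builds up, the membrane sensors Ire1 (Ern1), Perk (Eif2ak3) and Atf6 signal to the nucleus. Atf6 and spliced Xbp1 turn on chaperone and degradation genes, while Perk slows translation and lets Atf4 be made, which turns on genes of amino acid supply and the transcription factor Ddit3. Counts per gene do not separate spliced from unspliced Xbp1 and do not show cleavage or phosphorylation, so the activity of the sensors was not measured.

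The classical element through which Atf6 and Xbp1 act is the ER stress response element (ERSE), the boxes CCAAT and CCACG with 9 bases between them. RefSeq promoters (GRCm38.p6) were matched for 28 of the 32 members, and the 250 bases before each start were searched on both strands. A full ERSE was found in 9 of these members, Hspa5, Hsp90b1, Dnajc3, Creld2, Calr, Canx, Pdia6, Syvn1 and Derl3, and in 0.113% of all 32851 promoters of the table. The shorter ERSE-II, ATTGG and CCACG with 1 base between, was found in Herpud1 and in 0.0304% of all promoters. The element TGACGTGG, known as UPRE, was found in 0 members and in 0.563% of all promoters. The C/EBP-ATF response element (CARE) bound by Atf4 complexes, TGATGNAA, was found in Herpud1, Asns and Chac1 and in 3.45% of all promoters. Hspa5 is one of the genes on which the ERSE was defined, so its presence in the set describes the set and tests nothing. Printed are the 150 bases before the start of Hspa5, with each CCAAT and CCACG in capitals, and windows around the ERSE of Dnajc3 and Calr, members whose levels lay apart in all 3 comparisons with HFD mCherry. Canx and Derl3 carry the element and had other patterns, and Asns shows the CARE. Windows are on the strand of the gene, and capitals mark the element, which lies reversed (CGTGG first) in Calr and Derl3.
Hspa5, chr2:34771940-34772089, plus strand: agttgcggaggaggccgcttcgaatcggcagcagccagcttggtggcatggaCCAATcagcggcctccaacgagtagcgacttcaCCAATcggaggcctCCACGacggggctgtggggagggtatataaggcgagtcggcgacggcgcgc
Dnajc3, chr14:118937802-118937870, plus strand: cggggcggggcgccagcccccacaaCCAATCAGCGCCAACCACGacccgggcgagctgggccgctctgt
Calr, chr8:84847050-84847118, minus strand: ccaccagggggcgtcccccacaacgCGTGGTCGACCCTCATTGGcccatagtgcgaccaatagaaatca
Canx, chr11:50325775-50325843, minus strand: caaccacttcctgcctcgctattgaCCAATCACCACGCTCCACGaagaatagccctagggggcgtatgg
Derl3, chr10:75893217-75893285, plus strand: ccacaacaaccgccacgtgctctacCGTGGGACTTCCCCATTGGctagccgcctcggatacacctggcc
Asns, chr6:7693210-7693257, minus strand: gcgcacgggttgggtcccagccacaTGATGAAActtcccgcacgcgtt
The ERSE began 65 bases before the start in Hspa5, 105 in Dnajc3, 162 in Calr, 145 in Canx and 156 in Derl3, and the CARE 23 bases before the start in Asns. A match shows that these letters are present, not that a factor binds there.

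The libraries held 16430330 to 19486965 counts. Levels are given as CPM, counts scaled to a common library size with TMM factors. Tert stood at 0.463 to 3.97 CPM in the 6 mCherry libraries and at 6.99 to 16.6 CPM in the 6 libraries with a Tert cassette. The added feature mCherry_Tert had 0 counts in the 6 mCherry libraries, which allows up to 0.180 CPM (3 counts, counting error only), and stood at 1.93 to 5.54 CPM in the other 6. Summed markers of stromal progenitors (8 genes, none at 0 in a whole group) ran from 2520.1 to 4030.5 CPM in SD mCherry, 7094 to 21355 in HFD mCherry, 3777 to 9719.6 in HFD Tert and 3486 to 6684 in HFD TertCi. Summed macrophage markers (8 genes, none at 0 in a whole group) ran from 481 to 798, 1648 to 4258, 399.8 to 1761 and 573 to 1015 CPM in the same order. Markers of epididymis and epithelium, from tissue beside gonadal fat, ran from 91.9 to 56617 CPM and spread widely within every group. In such bulk samples, fewer cells of a type and less RNA per cell cannot be told apart.

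The members took 0.979% to 1.53% of the counts of a library. Per kilobase of annotated exon, over the 12 libraries, Hspa5 (BiP, the ER Hsp70 chaperone) was the most abundant of the 31 members with a single gene model, at 705 ± 220.1 CPM per kilobase (SD, n = 12). The transcription factor Atf4 followed at 421 ± 110.5 and the lectin chaperone Calr at 306 ± 111 CPM per kilobase (SD, n = 12). This order was not that of every group, since Calr lay above Atf4 in HFD mCherry, at 469 ± 95.95 against 331 ± 42.2 CPM per kilobase (SD, n = 3 each), and below it by its mean in each of the other 3 groups. P4hb, Hsp90b1, Ppp1r15a and Pdia3 came next at 204 to 243 CPM per kilobase, where neighbours did not differ beyond their spread. The sensors lay near the bottom, with Atf6 at 11.2 ± 3.20, Eif2ak3 at 8.99 ± 4.56 and Ern1, the lowest, at 2.73 ± 1.15 CPM per kilobase (SD, n = 12). The length used is the union of annotated exons, which can exceed the transcript that is made and so lower a level.

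**Figure D1:**
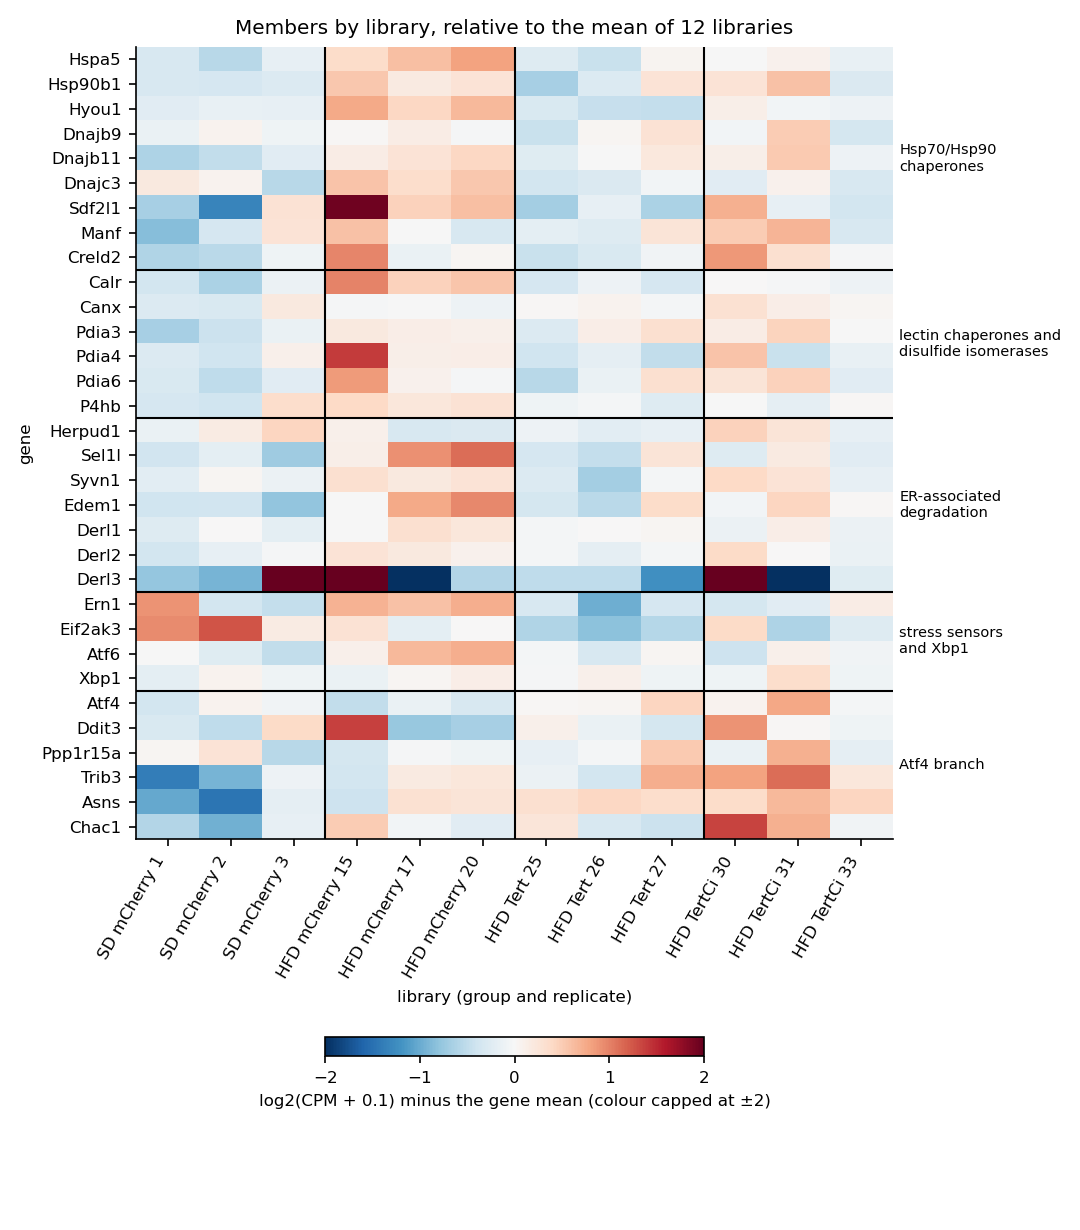
Heat map of the 32 members (rows, grouped by role) in the 12 libraries (columns, grouped by label), with each gene shown on a log2 scale relative to its own mean over all libraries. Hspa5, Hyou1 and Calr are highest in the 3 HFD mCherry libraries, whereas Derl3 is high in 3 libraries of 3 different groups.

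Among mCherry mice, libraries from the high-fat diet had more RNA of many ER chaperones than libraries from the standard diet. The chaperones and isomerases that lay apart between diets differed by 1.45-fold (Pdia3) to 3.01-fold (Sdf2l1). Sel1l and Edem1, of ER-associated degradation, and the sensor Atf6 were also higher without overlap (over all genes 13.9% were). In the Atf4 branch 0 of 6 members were, a count too small to set against that share. No member passed edgeR's quasi-likelihood test after adjustment over all genes.

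Hspa5 stood at 2291, 1947 and 2559 CPM in SD mCherry and at 3689.96, 4371 and 4999.5 CPM in HFD mCherry. The lowest high-fat library lay above the highest standard-diet library, with a log2 fold change of 0.94 ± 0.250 (SE) and an edgeR adjusted p = 0.0816. Hyou1, the nucleotide exchange factor that works with BiP, stood at 190.1, 200.3 and 198 CPM on the standard diet and 377, 298 and 348 CPM on the high-fat diet. The groups lay apart here too, by a log2 fold change of 0.80 ± 0.164 (SE) with an edgeR adjusted p = 0.0659. Hyou1 varied little between replicates, its SD of log2 CPM within groups being 0.116, a value that 0.784% of the genes tested fell below. Calr, the calcium-binding lectin that retains unfinished glycoproteins, had 648, 539 and 773 CPM on the standard diet and 1667, 1152 and 1237 CPM on the high-fat diet. Its log2 fold change was 1.05 ± 0.227 (SE), without overlap and with an edgeR adjusted p = 0.0671.

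Of the 9 Hsp70 and Hsp90 chaperones and cofactors, 6 were higher without overlap on the high-fat diet, against 13.9% of all genes, and the log2 fold change was positive for all 9. Sdf2l1, a partner of the ER J-proteins, went from 20.2, 12.8 and 39.2 CPM to 124, 44.2 and 48.7 CPM. Replicate 15 stood well above the others, and the log2 fold change was 1.59 ± 0.505 (SE), with an edgeR adjusted p = 0.112. Dnajb11, a J-protein that delivers clients to BiP, had 63.8, 69.8 and 84.5 CPM and 109, 119 and 131 CPM (log2 fold change 0.72 ± 0.209, SE, adjusted p = 0.0946 in edgeR). Dnajc3, another J-protein and an inhibitor of Perk, had 243, 221 and 144 CPM and 313, 269 and 308 CPM (log2 fold change 0.55 ± 0.223, SE, adjusted p = 0.177 in edgeR). Both lay apart between diets. Hsp90b1, the ER Hsp90, stood at 705, 696 and 727 CPM against 1271, 995 and 1057 CPM, without overlap (log2 fold change 0.64 ± 0.293, SE, adjusted p = 0.209 in edgeR). The secreted cofactor Creld2 overlapped between diets (log2 fold change 0.77 ± 0.324, SE, adjusted p = 0.185 in edgeR). The groups also overlapped for Dnajb9, a J-protein that binds Ire1, at means of 231 and 247 CPM, and for Manf, a secreted stress protein, at 225 and 289.7 CPM.

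Of the 6 lectin chaperones and disulfide isomerases, 4 were higher without overlap, against the same 13.9% of all genes. Beside Calr these were the isomerases Pdia3, Pdia4 and Pdia6, with log2 fold changes of 0.54 ± 0.231, 0.86 ± 0.373 and 0.70 ± 0.305 (SE) and edgeR adjusted p-values of 0.192, 0.194 and 0.197. Pdia4 rested on replicate 15 for its size, at 114, 105 and 149.9 CPM against 366, 150.5 and 153 CPM. Canx, the membrane-bound relative of Calr, had 494 ± 99.8 CPM on the standard diet and 518 ± 18.2 CPM on the high-fat diet (SD, n = 3 each), and its groups overlapped. P4hb, the main disulfide isomerase, overlapped as well, at 545, 518 and 869.6 CPM and 907, 800.00 and 835 CPM.

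ER-associated degradation carries misfolded proteins out of the ER to the proteasome. Sel1l, the scaffold of the Hrd1 ligase, stood at 99.2, 113 and 78.5 CPM on the standard diet and 139, 244 and 280.3 CPM on the high-fat diet. The groups lay apart, with a log2 fold change of 1.19 ± 0.298 (SE, edgeR adjusted p = 0.0756). Edem1, which hands over trimmed glycoproteins, had 86.3, 87.7 and 65.7 CPM and 113, 192 and 221 CPM, without overlap (log2 fold change 1.14 ± 0.307, SE, adjusted p = 0.0849 in edgeR). Within the high-fat group both were lowest in replicate 15, in which Calr and Sdf2l1 were highest. Syvn1, the Hrd1 ligase itself, and Derl2, of the retrotranslocation channel, lay apart by little, with log2 fold changes of 0.36 ± 0.210 and 0.37 ± 0.179 (SE, edgeR adjusted p = 0.311 and 0.234). Derl1, of the same channel, had 139.8 ± 13.3 and 176 ± 19.7 CPM, and Herpud1, an adaptor of the ligase, 387 ± 75.1 and 309.5 ± 53.8 CPM on the standard and high-fat diet (SD, n = 3 each). Both overlapped between diets.

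The sensors differed among themselves. Atf6 had 99.2, 84.5 and 71.3 CPM on the standard diet and 107, 158 and 165 CPM on the high-fat diet, without overlap (log2 fold change 0.75 ± 0.225, SE, edgeR adjusted p = 0.0982). Eif2ak3 was the 1 member with a lower level at an unadjusted p under 0.05, at 94.8, 118 and 54.7 CPM against 59.9, 43.1 and 49.2 CPM (log2 fold change -0.81 ± 0.313, SE, edgeR adjusted p = 0.162). Its groups overlapped through SD mCherry replicate 3. Ern1 stood at 38.4, 15.95 and 14.7 CPM and 33.5, 30.97 and 34.2 CPM, and SD mCherry replicate 1 alone made the groups overlap. Total Xbp1 RNA had 352 ± 33.9 CPM on the standard diet and 372 ± 33.9 CPM on the high-fat diet (SD, n = 3 each), a difference within the spread.

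In the Atf4 branch, Asns, the asparagine synthetase and a well-known Atf4 target, stood at 13.7, 10.1 and 24.6 CPM against 20.99, 34.5 and 33.3 CPM (log2 fold change 0.88 ± 0.310, SE, adjusted p = 0.138 in edgeR). The groups overlapped, as they did for the other members of the branch. Atf4 itself averaged 892 CPM on the standard diet and 781 CPM on the high-fat diet, and Ppp1r15a, the phosphatase subunit that ends the Perk signal, 574 and 532 CPM. The pseudokinase Trib3 and the glutathione-degrading enzyme Chac1 were low throughout, at 5.40 to 30.7 and 6.93 to 34.99 CPM over the 12 libraries.

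Counted over the set, edgeR called 0 of 32 members in the diet comparison and 0.0479% of all genes tested. An unadjusted p under 0.05 was reached by 14 members with higher levels on the high-fat diet (14.1% of all genes) and 1 with a lower level (10% of all genes). The groups did not overlap for 15 of 32 members with the high-fat diet higher (13.9% of all genes) and for 0 with it lower (11.6% of all genes). DESeq2 called 8 members higher, where it called 8.5% of genes higher. These were Hspa5, Hyou1, Dnajb11, Sdf2l1, Calr, Sel1l, Edem1 and Atf6, with DESeq2 adjusted p-values from 1.91e-05 (Hyou1) to 0.0330 (Dnajb11). With limma-voom, 0 members and 0% of all genes were called. The median log2 fold change of the members was 0.60 and that of all genes -0.0753, with 28 of 32 members and 7667 of all 16713 genes positive. Scaling by library size alone moved these medians to 0.40 and -0.27, with 25 of 32 members positive. Leaving out HFD mCherry replicate 15 gave 6 members called higher in edgeR (Hspa5, Hyou1, Calr, Sel1l, Edem1 and Atf6) and a member median of 0.39. Of all genes 12.2% were then called, counted in either direction. Leaving out HFD Tert replicate 27, a library of neither diet group, changed the shared spread and the filter (17152 genes tested). It gave 4 members called higher (Hyou1, Calr, Sel1l and Edem1) and 4% of all genes called in either direction. Of the 9 members with an ERSE 6 were higher without overlap on the high-fat diet, against 13.9% of all genes. Of the 19 with a promoter that lacked one 7 were, and of the 4 without a matched promoter 2. The median log2 fold changes of these sets were 0.70, 0.51 and 0.56. The sets are small, and the difference between them was not tested.

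**Figure D2:**
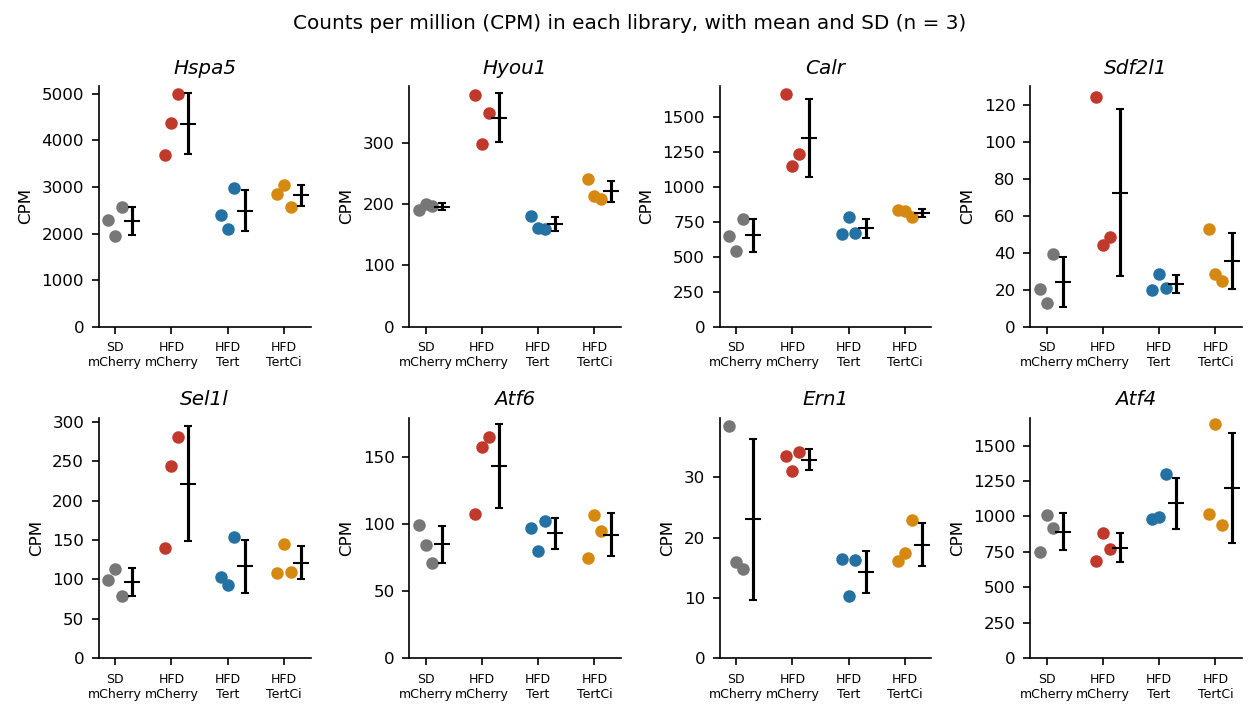
CPM of 8 members in each library (points, linear y axes), by group, with the mean and SD of the 3 libraries of a group. The HFD mCherry points of Hspa5, Hyou1 and Calr lie above all points of the other groups, and those of Atf4 lie below all points of HFD Tert and HFD TertCi.

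Stromal progenitor, macrophage and endothelial markers were higher in the 3 HFD mCherry libraries than in the 3 of SD mCherry, without overlap, and their part in these differences was not tested. The endothelial list (7 genes, none at 0 in a whole group) summed to 655 to 976 CPM in SD mCherry and 1524 to 2706 CPM in HFD mCherry. HFD mCherry replicate 15 had the lowest sums of its group for these lists, 7094, 1648 and 1524 CPM. Of the 15 members that were higher without overlap, Hspa5, Dnajb11, Sel1l, Edem1 and Atf6 were also lowest in that library. The other 10, Hsp90b1, Hyou1, Dnajc3, Sdf2l1, Calr, Pdia3, Pdia4, Pdia6, Syvn1 and Derl2, were highest there. A covariate was taken from the epididymis and epithelium list, as the mean log2 CPM of the 8 of its 10 genes that were tested, not their summed CPM. With this covariate edgeR called Hyou1 and Calr higher (adjusted p = 0.0289 and 0.0289), where it called 1.84% of all genes higher. The dissociation response list (10 genes), which cell isolation induces, overlapped between diets. It summed to 14802, 16152 and 8140 CPM in SD mCherry and 8498 to 10201 CPM in HFD mCherry. Replicates 1 and 2 of SD mCherry stood above all other libraries. Of its 10 genes, 9 had a negative log2 fold change, with a median of -0.64. Its part in the diet differences, such as the lower Eif2ak3, was not tested.

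Libraries with the Tert cassette on the high-fat diet were set against HFD mCherry. Hspa5, Hyou1, Dnajc3, Sdf2l1, Calr, Pdia4 and P4hb were lower in HFD Tert without overlap, together with the sensors Ern1, Eif2ak3 and Atf6 (over all genes 11.1% were). The fitted level in HFD Tert was 0.490 times that in HFD mCherry for Hyou1 and 0.320 times for Sdf2l1. The diet, Tert and TertCi comparisons share the 3 HFD mCherry libraries, so their values are given side by side and no likeness between them is read as a result.

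Hyou1 had 180.3, 161 and 159 CPM in HFD Tert and 241, 213 and 208 CPM in HFD TertCi, against 298 to 377 CPM in HFD mCherry. Neither group reached HFD mCherry, and the log2 fold changes were -1.03 ± 0.165 for Tert and -0.63 ± 0.164 for TertCi (SE, edgeR adjusted p = 0.125 and 0.190). Calr stood at 663, 783 and 668 CPM in HFD Tert and 839.6, 828 and 785 CPM in HFD TertCi, all below the lowest HFD mCherry value of 1152 CPM. Its log2 fold changes were -0.94 ± 0.227 and -0.73 ± 0.226 (SE, edgeR adjusted p = 0.187 and 0.226). Hspa5 had 2407, 2095 and 2970.1 CPM in HFD Tert and 2850.1, 3031 and 2573 CPM in HFD TertCi, again all under the 3689.96 CPM of the lowest HFD mCherry library. Its log2 fold changes were -0.81 ± 0.249 and -0.63 ± 0.249 (SE, edgeR adjusted p = 0.213 and 0.286). Dnajc3 lay below HFD mCherry in both groups as well, with log2 fold changes of -0.72 ± 0.224 and -0.63 ± 0.224 (SE, edgeR adjusted p = 0.213 and 0.257).

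Sdf2l1 stood at 20.1, 28.6 and 20.7 CPM in HFD Tert, below HFD mCherry without overlap (log2 fold change -1.64 ± 0.506, SE, adjusted p = 0.210 in edgeR). In HFD TertCi it had 52.7, 28.7 and 24.8 CPM, and replicate 30 reached into the range of HFD mCherry. Pdia4 and Syvn1 were lower without overlap in HFD Tert, with log2 fold changes of -1.03 ± 0.374 and -0.57 ± 0.210 (SE, edgeR adjusted p = 0.238 and 0.242), and overlapped HFD mCherry in HFD TertCi. P4hb was lower without overlap in both groups by little, at -0.43 ± 0.232 and -0.36 ± 0.232 on the log2 scale (SE, edgeR adjusted p = 0.375 and 0.492). Derl2 was lower without overlap in HFD Tert (log2 fold change -0.27 ± 0.179, SE, adjusted p = 0.452 in edgeR).

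Each of the sensors was lower without overlap in HFD Tert. Ern1, the Ire1 gene, stood at 16.5, 10.4 and 16.2 CPM in HFD Tert and 16.1, 17.5 and 22.9 CPM in HFD TertCi, against 30.97 to 34.2 CPM in HFD mCherry. Both cassette groups lay below, with log2 fold changes of -1.20 ± 0.363 and -0.81 ± 0.360 (SE, edgeR adjusted p = 0.207 and 0.336). Atf6 stood at 97.2, 79.7 and 102 CPM in HFD Tert and 74.9, 107 and 94.8 CPM in HFD TertCi, under the 107 CPM of the lowest HFD mCherry library, which the highest HFD TertCi library nearly reached. Its log2 fold changes were -0.62 ± 0.225 and -0.64 ± 0.225 (SE, edgeR adjusted p = 0.238 and 0.254). Eif2ak3 had 32.4, 27.8 and 32.96 CPM in HFD Tert (log2 fold change -0.71 ± 0.313, SE, adjusted p = 0.297 in edgeR) and overlapped in HFD TertCi. For Sel1l and Edem1, which were low in HFD mCherry replicate 15, the groups overlapped. The log2 fold change of Sel1l was -0.93 ± 0.297 for Tert and -0.87 ± 0.296 for TertCi, and that of Edem1 -0.75 ± 0.305 for Tert (SE, edgeR adjusted p = 0.219, 0.246 and 0.271).

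In the Atf4 branch 2 of 6 members were higher without overlap in both cassette groups. Over all genes 9.99% were for Tert and 9.45% for TertCi, and 2 members are too few to set against these shares. Atf4 had 687, 885 and 772 CPM in HFD mCherry, 980.2, 996 and 1299 CPM in HFD Tert and 1017, 1649 and 941 CPM in HFD TertCi. Both cassette groups lay above HFD mCherry, with log2 fold changes of 0.48 ± 0.269 and 0.62 ± 0.269 (SE, edgeR adjusted p = 0.386 and 0.319). Asns lay above by less, at 34.8 to 37.3 CPM in HFD Tert and 36.3 to 43.7 CPM in HFD TertCi against 20.99 to 34.5 CPM (log2 fold changes 0.28 ± 0.307 and 0.41 ± 0.307, SE, edgeR adjusted p = 0.669 and 0.553). Its log2 fold change for Tert did not exceed its standard error. Xbp1 overlapped HFD mCherry in both groups, at 369 ± 25.5 CPM in HFD Tert and 388 ± 69.7 CPM in HFD TertCi (SD, n = 3 each). Canx stood a little above HFD mCherry in HFD TertCi, without overlap (log2 fold change 0.20 ± 0.196, SE, adjusted p = 0.665 in edgeR).

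The other members overlapped HFD mCherry in both cassette groups. Hsp90b1 stood at 551 to 1062 CPM in HFD Tert and 720.00 to 1309 CPM in HFD TertCi, against 995 to 1271 CPM in HFD mCherry. The J-proteins Dnajb9 and Dnajb11 had 174 to 292 and 83.6 to 114 CPM in HFD Tert and 187 to 339.6 and 91.6 to 142 CPM in HFD TertCi. Manf stood at 221 to 315 and 213 to 424 CPM in these groups. The isomerases Pdia3 and Pdia6 overlapped HFD mCherry as well, at 520.3 to 785 and 218 to 399 CPM in HFD Tert and 626 to 854 and 273 to 439.7 CPM in HFD TertCi. In the degradation group, Derl1 stood at 150.04 to 158 and 142 to 168 CPM and Herpud1 at 298 to 321 and 308 to 472 CPM. Ppp1r15a, Trib3 and Chac1, of the Atf4 branch, had 525 to 847, 10.9 to 23.6 and 10.05 to 16.1 CPM in HFD Tert and 522 to 969, 16.5 to 30.7 and 12.9 to 34.99 CPM in HFD TertCi. Creld2, Ddit3 and Derl3, which also overlapped, are described further on.

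For Tert edgeR called 0 of 32 members and 0% of all genes, and for TertCi 0 of 32 members and 0.012% of all genes. At an unadjusted p under 0.05, 12 members were lower for Tert (9.75% of all genes) and 0 higher (6.62% of all genes). For TertCi 7 were lower (8.92% of all genes) and 1, Atf4, was higher (5.76% of all genes). Groups did not overlap, with the cassette lower, for 12 of 32 members for Tert (11.1% of all genes) and 7 of 32 for TertCi (12% of all genes). With the cassette higher they did not overlap for 2 and 3 members (9.99% and 9.45% of all genes). DESeq2 called 6 members lower for Tert (Hspa5, Hyou1, Dnajc3, Sdf2l1, Calr and Ern1) and 2 for TertCi (Hyou1 and Calr), where it called 3.21% and 2.94% of genes lower. The DESeq2 adjusted p-value of Hyou1 was 3.84e-09 for Tert and 0.00275 for TertCi. With limma-voom, 0 members were called for Tert and 0 for TertCi, beside 0% and 0.012% of all genes. The median log2 fold change of the members was -0.45 for Tert and -0.0928 for TertCi, against -0.0534 and -0.0389 over all genes. Without HFD mCherry replicate 15 the Tert median was -0.25, and without HFD TertCi replicate 33 the TertCi median was 0.0395. Without HFD mCherry replicate 20 there were 4 members lower for TertCi at an unadjusted p under 0.05. With the epididymis and epithelium list as a covariate, edgeR called Hyou1 and Calr lower for Tert (adjusted p = 0.0162 and 0.0395), where it called 1.39% of all genes lower. It then called 0 members for TertCi and 1.17% of all genes.

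**Figure D3:**
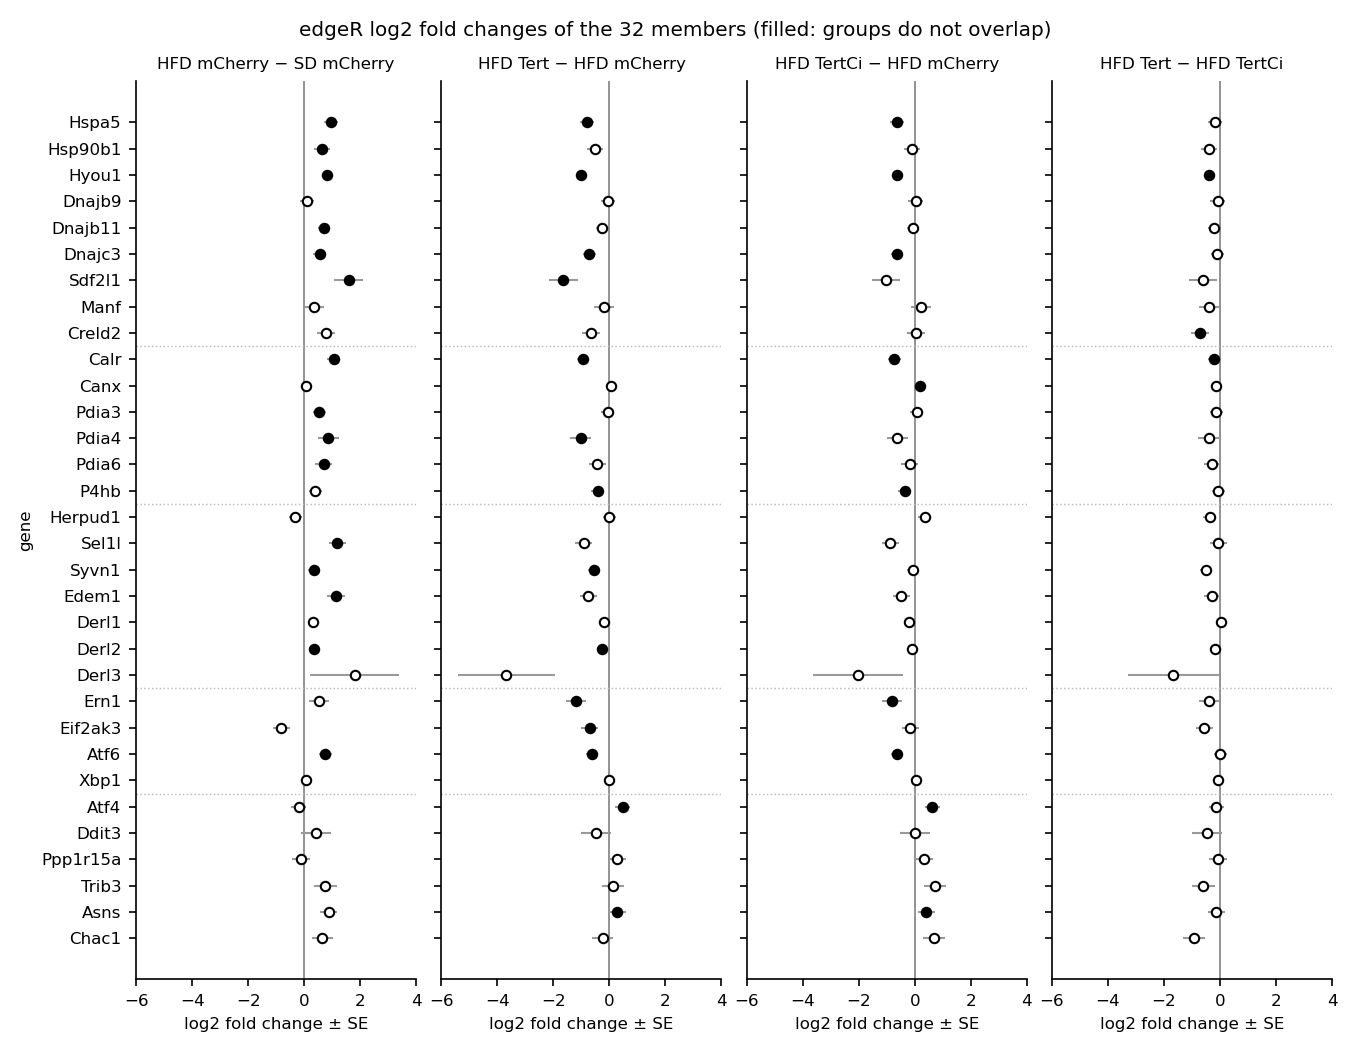
Log2 fold changes (x axis, with SE of the edgeR fit) of the 32 members (y axis) in the 4 comparisons. Filled points mark members whose groups do not overlap, which are 15 higher for the diet, 12 lower and 2 higher for Tert, 7 lower and 3 higher for TertCi, and 3 lower for Tert against TertCi.

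The stromal progenitor and macrophage sums of HFD TertCi lay below those of HFD mCherry, and those of HFD Tert overlapped them through replicate 27. That library had 9719.6 CPM of stromal and 1761 CPM of macrophage markers, above the 7094 and 1648 CPM of HFD mCherry replicate 15. The endothelial sums of both cassette groups overlapped HFD mCherry. Mesothelial markers (5 genes, none at 0 in a whole group) summed to 136 to 271 CPM in HFD mCherry, 616 to 1227 CPM in HFD Tert, which lay above without overlap, and 261 to 806 CPM in HFD TertCi. Adipocyte markers (7 genes, none at 0 in a whole group) stood at 41.6 to 46.8 CPM in HFD mCherry and were higher without overlap in both, at 60.5 to 97.3 CPM in HFD Tert and 48.8 to 72.6 CPM in HFD TertCi. The part of these lists in the differences of the members was not tested.

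HFD Tert and HFD TertCi, which differ in the catalytic activity of the Tert they carry, were compared directly. edgeR called 0 of 32 members and 0% of all genes, and DESeq2 called 0 members and 0.0544% of genes. An unadjusted p under 0.05 was reached by 3 members with lower levels in HFD Tert (0.592% of all genes) and by 0 with higher levels (0.766% of all genes). The lower ones were Hyou1, Syvn1 and Chac1, at log2 fold changes of -0.40 ± 0.163, -0.49 ± 0.210 and -0.92 ± 0.387 (SE), each with an edgeR adjusted p = 1. Without HFD Tert replicate 26, or without HFD TertCi replicate 30, 0 members were lower at this level. Groups did not overlap for 3 members lower in HFD Tert, Hyou1, Creld2 and Calr (2.58% of all genes), and for 0 higher (2.55% of all genes). Creld2 stood at 39.7, 43.8 and 51.8 CPM in HFD Tert and 99.1, 67.6 and 53.5 CPM in HFD TertCi (log2 fold change -0.70 ± 0.324, SE). For Calr the log2 fold change of -0.21 ± 0.225 (SE) did not exceed its standard error. In all 30 of 32 members had a lower fitted level in HFD Tert, as had 8648 of all 16713 genes. Without HFD TertCi replicate 31, 23 of 32 members had. The members were read from the same libraries, so their signs are not independent. The median log2 fold change was -0.24 for the members and -0.0112 for all genes. The absence of calls does not show that active and inactive Tert acted alike.

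Over the 4 groups together edgeR's F-test called 0 members and 0.012% of all genes, with 14 members at an unadjusted p under 0.05 (20.2% of all genes). DESeq2's likelihood ratio test called 7 members and 14.5% of genes. With the epididymis and epithelium covariate edgeR called 2 members, Hyou1 and Calr, and 2.25% of all genes.

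Derl3 and Ddit3 varied between libraries in a way the groups did not follow. Derl3, a degradation factor of the derlin family, had 3.21, 2.86 and 30.8 CPM in SD mCherry, 123, 1.14 and 3.64 CPM in HFD mCherry, 3.85, 3.84 and 2.29 CPM in HFD Tert and 25.8, 1.16 and 4.66 CPM in HFD TertCi. It was high in SD mCherry replicate 3, HFD mCherry replicate 15 and HFD TertCi replicate 30. Its SD of log2 CPM within groups was 2.27, against medians of 0.317 over the members and 0.506 over all genes. Ddit3, the transcription factor Chop, was highest in the same 3 libraries, at 133, 264 and 191 CPM, and lay between 60.4 and 109 CPM in the other 9. Pdia4 had 149.9, 366 and 207 CPM in them.

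Marker lists were set beside these libraries. The epididymis and epithelium list stood at 56617, 8616 and 34173 CPM in SD mCherry replicate 3, HFD mCherry replicate 15 and HFD TertCi replicate 30. It was also at 19433 to 27946 CPM in SD mCherry replicate 1, HFD Tert replicate 25 and HFD TertCi replicate 33, where Derl3 was at 3.21, 3.85 and 4.66 CPM. The plasma cell list (5 of 6 genes present), of cells that secrete antibody in bulk, summed to 32.4, 55.02 and 96.2 CPM in the 3 libraries and to 64.1 to 140.3 CPM in the other 9. The 2 lowest sums of all were thus in replicates 3 and 15. In HFD mCherry replicate 17, which had the highest sum, Jchain and Mzb1 of this list stood at 42.5 and 3.67 CPM. Other genes of the list thus made up most of that sum. Jchain, of the antibody joining chain, was at 7.94, 13.6 and 50.7 CPM in the 3 libraries. In the other 9 it was at 16.8 to 82.0 CPM, highest in SD mCherry replicate 2. Mzb1, of the same list, was at 0.521, 2.10 and 9.33 CPM in the 3 libraries and at 0.708 to 8.58 CPM in the other 9. HFD TertCi replicate 30 had its highest level of all libraries. Summed dissociation response genes, which cell isolation induces, stood at 8139.8, 8498 and 9354 CPM in the 3 libraries and at 8359 to 16152 CPM in the other 9. The part of these lists in the levels of Derl3 and Ddit3 was not tested.

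**Figure D4:**
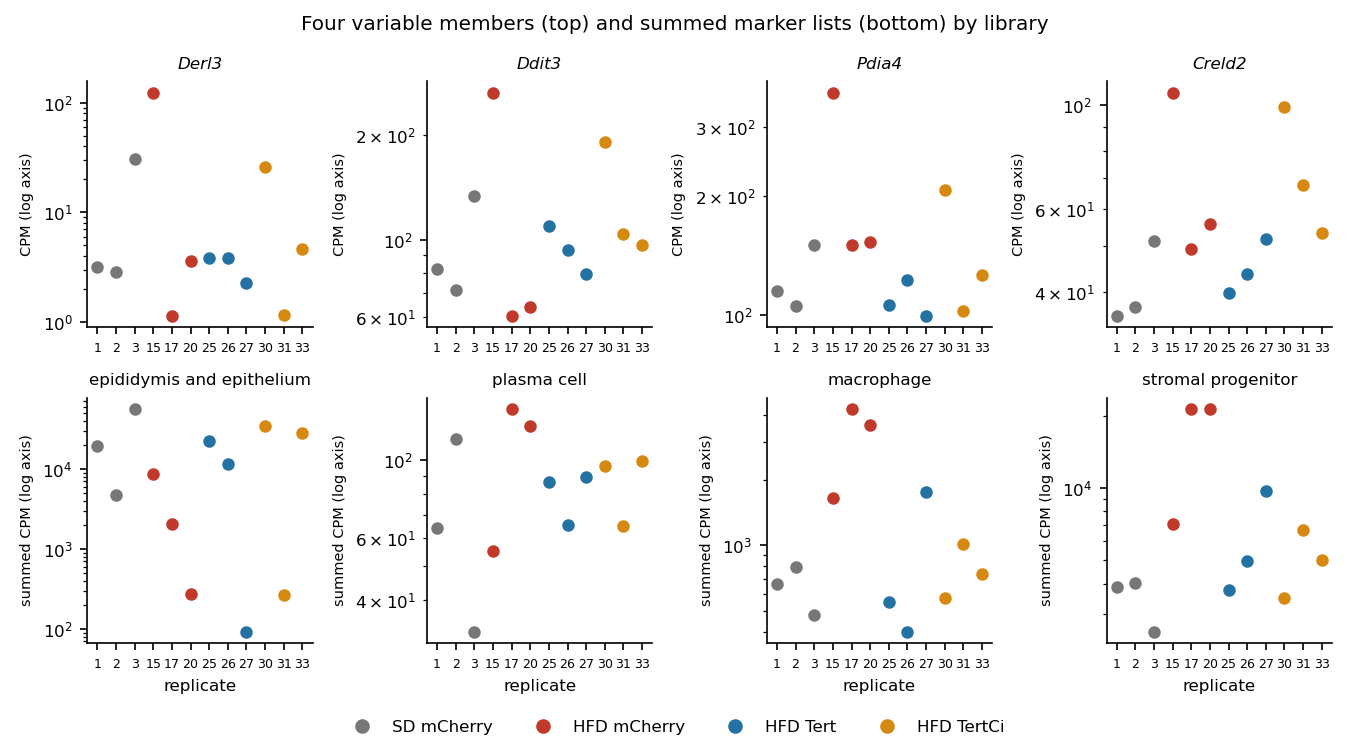
CPM of Derl3, Ddit3, Pdia4 and Creld2 and summed CPM of 4 marker lists (log axes) in the 12 libraries, by replicate number and coloured by group. Derl3 and Ddit3 are highest in replicates 3, 15 and 30. The epididymis and epithelium sum is highest in replicates 3 and 30, while that of replicate 15 lies below those of replicates 1, 25, 26 and 33. The plasma cell and macrophage sums are highest in replicate 17.

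The rest of the ER machinery was described with 5 lists of 95 further genes, of which 94 were tested. In the diet comparison edgeR called 0 of them, and 26 were higher and 1 lower at an unadjusted p under 0.05 (14.1% and 10% of all genes). Without overlap 27 were higher and 0 lower (13.9% and 11.6% of all genes). Their median log2 fold change was 0.30. In the translocon and signal peptidase list (16 genes), the peptidase subunit Spcs3 had a log2 fold change of 0.82 ± 0.213 and the channel subunit Sec61a1 one of 0.47 ± 0.155 (SE, edgeR adjusted p = 0.0774 and 0.123). Among 26 other folding factors 11 were higher and 0 lower without overlap, against the same shares of all genes. The isomerases Txndc5 and Pdia5 had log2 fold changes of 0.84 ± 0.191 and 1.35 ± 0.322, and the collagen chaperone Serpinh1 one of 1.46 ± 0.361 (SE, edgeR adjusted p = 0.0708, 0.0727 and 0.0738). Serpinh1 stood at 504 ± 112 CPM on the standard diet and 1385 ± 571 CPM on the high-fat diet (SD, n = 3 each), and the stromal marker list was higher in the same group. Os9, a lectin of the degradation pathway, and Atf6b, the paralogue of Atf6, were higher without overlap at log2 fold changes of 0.47 ± 0.155 and 0.57 ± 0.171 (SE, edgeR adjusted p = 0.119 and 0.1004). Other Atf4 targets were mixed, with Slc3a2, a subunit of amino acid transporters, at 0.91 ± 0.179 and the stress factor Atf3 at -1.18 ± 0.393 (SE, edgeR adjusted p = 0.0659 and 0.123).

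For Tert 19 of the 94 genes were lower and 0 higher at an unadjusted p under 0.05 (9.75% and 6.62% of all genes). For TertCi 17 were lower and 1 higher (8.92% and 5.76% of all genes), and edgeR called 0 in either comparison. Txndc5, Sec61a1, Spcs3, Os9 and Slc3a2 were lower without overlap in both, with log2 fold changes from -0.84 (Txndc5, TertCi) to -0.40 (Os9, TertCi). Wfs1, an ER membrane protein that restrains Atf6, had the smallest p-values of these lists. It stood at 86.1 ± 22.5 CPM in HFD mCherry, 36.9 ± 3.45 CPM in HFD Tert and 32.7 ± 5.25 CPM in HFD TertCi (SD, n = 3 each). Its log2 fold changes were -1.22 ± 0.241 and -1.39 ± 0.242 (SE, edgeR adjusted p = 0.157 and 0.154), and it passed DESeq2 for both cassettes (DESeq2 adjusted p = 0.000605 and 6.90e-05). Gars, the glycyl-tRNA synthetase and an Atf4 target, was the 1 gene higher for TertCi (log2 fold change 0.79 ± 0.283, SE, adjusted p = 0.257 in edgeR).

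Chaperones of other compartments had medians on the other side of 0 in the diet comparison. There 10 of 12 cytosolic heat shock genes and 8 of 8 mitochondrial chaperone genes had negative log2 fold changes, with medians of -0.39 and -0.51 against 0.60 for the ER members. Over all genes 9045 of 16713 were negative, with a median of -0.0753. Lower without overlap were 2 of the 12 and 3 of the 8 (11.6% of all genes). The summed cytosolic list of HFD mCherry replicate 15, at 7432 CPM, lay within the 6440 to 7669 CPM of SD mCherry. Replicates 17 and 20 had 4206 and 4237 CPM. Dnaja1, a cytosolic J-protein, was lower without overlap (log2 fold change -0.71 ± 0.275, SE, edgeR adjusted p = 0.163), and so was Clpx, of the mitochondrial protease (log2 fold change -0.67 ± 0.199, SE, edgeR adjusted p = 0.0980). Hsf1, the heat shock transcription factor, was the 1 cytosolic gene higher without overlap (log2 fold change 0.50 ± 0.186, SE, adjusted p = 0.154 in edgeR). The medians of the mitochondrial list were 0.33 for Tert and 0.33 for TertCi, and those of the cytosolic list -0.10 and 0.17. Differences between lists were not tested.

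**Figure D5:**
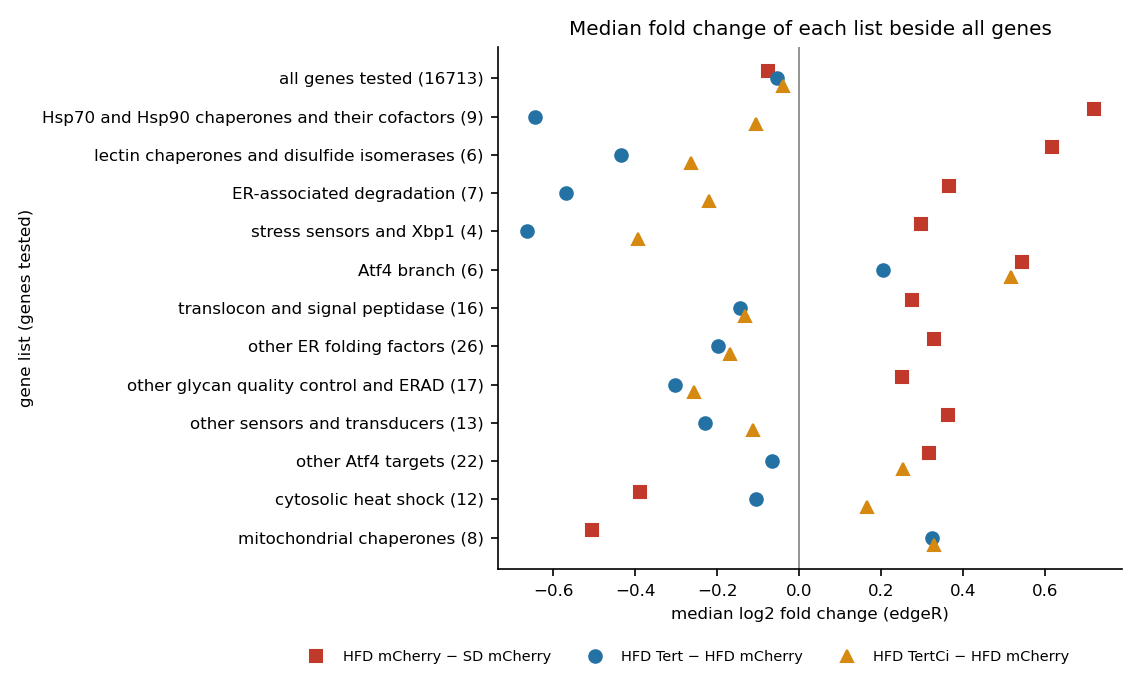
Median log2 fold change (x axis, edgeR) of all genes tested, the groups of members, the further lists of the pathway and the 2 lists of other compartments (y axis) for the diet, Tert and TertCi comparisons. The medians of the ER lists lie to the right of that of all genes for the diet, while the cytosolic and mitochondrial lists lie to its left.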

How the data were processed

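Poly-A RNA of the 12 libraries was selected and copied into cDNA from random primers, per the labels' protocols. The authors deposited raw read counts per gene symbol, per the file headers. The submitters' processing notes name Subread, SAMtools, featureCounts 1.6.4 and mm10. The annotation, and whether strand was used, are not given in the sources used here, and without strand overlapping genes can share reads. Exon bases shared with another gene made up at most 10.3% of a member's exons (Hsp90b1), among the 31 members with a single gene model. Ddit3, which has 2 gene identifiers, was not measured.

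The deposited counts were fitted in R 4.3.3 with edgeR 4.0.16, using filterByExpr, TMM scaling (factors 0.854 to 1.15) and 1 robust quasi-likelihood model of all 12 libraries. P-values are 2-sided, and a gene was called at a Benjamini-Hochberg adjusted p under 0.05 over the 16713 genes tested. DESeq2 1.42.0 and limma-voom 3.58.1 were alternatives. The procedure was also run on simulated counts, with changes larger than those of most members. That run does not show how often changes of the members' size would be called. No pair of replicates agreed within sampling noise (chi-square per degree of freedom at least 18.01).

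Every member was given by its levels, with a fold change where the unadjusted p was under 0.05 or the groups did not overlap. From each further list up to 3 genes per comparison with the smallest p under 0.05 could be named. Jchain and Mzb1 were chosen after their values were seen. The members and lists were chosen with earlier results of these data known. Exon lengths came from GENCODE M21 and promoters from RefSeq.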

Additional observations from a re-analysis of the deposited data

How the results depend on the processing

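No paired analysis was possible because no replicate number occurs in more than 1 group. No named fold change of a member was reversed under any alternative run. With DESeq2, members called moved from 0 to 8, 6 and 2 in the diet, Tert and TertCi comparisons and to 7 over the 4 groups. Calls over all genes, in either direction, were then 13.3%, 5.12%, 4.3% and 14.5%. With the epithelial covariate, members called moved to 2 for the diet, for Tert and over the 4 groups. Of all genes 2.1%, 2.06% and 2.25% were then called. With limma-voom, members called stayed at 0 in every comparison and over the 4 groups. At an unadjusted p under 0.05, scaling by library size only left 9 members higher for the diet (median log2 fold change 0.40), 1 higher for Tert, 2 higher for TertCi and 1 lower in Tert against TertCi. With only the 6 libraries compared 9 were higher for the diet, and with the covariate 1 was higher for Tert and 2 for TertCi. Leaving out 1 library at a time, members called ranged from 0 to 6 for the diet (6 without HFD mCherry replicate 15) and from 0 to 3 over the 4 groups (3 without SD mCherry replicate 3). Of all genes 12.2% and 3% were called in these runs. The median log2 fold change ranged from 0.39 to 0.69 for the diet, -0.55 to -0.25 for Tert, -0.26 to 0.0395 for TertCi and -0.33 to -0.17 for Tert against TertCi. The TertCi median was positive without HFD TertCi replicate 33. Members with an unadjusted p under 0.05 ranged from 9 to 15 higher and 0 to 1 lower for the diet, 8 to 13 lower for Tert, 0 to 2 higher and 4 to 8 lower for TertCi, and 0 to 4 lower in Tert against TertCi. The causes were not tested. Precision is limited by 3 libraries a group and by a common biological coefficient of variation of 0.536.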
